A study of Arabidopsis thaliana with 12 samples.

Results

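The 43 genes described here are the nuclear Arabidopsis genes for the proteins that harvest light, the subunits of photosystem I and photosystem II, and the small subunit of Rubisco, chosen by gene identifier from the 33602 genes in the table. They comprise 4 antenna genes of photosystem I (LHCA), 9 genes of the main antenna of photosystem II (LHCB1, LHCB2 and LHCB3), 4 genes of its minor antenna (LHCB4, LHCB5 and LHCB6), 12 genes of photosystem I subunits (PSA), 6 genes of the oxygen-evolving complex, 4 genes of other photosystem II subunits (PSB) and 4 Rubisco small subunit genes (RBCS). RNA was taken from torpedo-stage embryos of 4 crosses, in each of which a diploid Col-0 mother, wild type, was emasculated and pollinated by hand. 2x wt embryos had a 2n Col-0 father and were collected at 6 days after pollination (DAP), and 2x nrpd1 embryos had a 2n father carrying the nrpd1-3 mutation, named pol4 in the labels, in the largest subunit of RNA polymerase IV, and were likewise collected at 6 DAP. 3x wt embryos had a tetraploid (4n) Col-0 father and 3x nrpd1 embryos a 4n pol4 father, and both were collected at 8 DAP by the labels. The tetraploid fathers descended from colchicine-treated plants, the embryos of the mutant crosses kept a wild-type NRPD1 allele from the mother, and each of the 3 biological replicates per group was a pool of many embryos. Ploidy and age therefore changed together between 2x wt and 3x wt and cannot be told apart. The sources used here disagree on the age of the 3x nrpd1 embryos, so whether age also differed between them and the 2x nrpd1 or the 3x wt embryos is uncertain.

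Photosystem II splits water and photosystem I reduces ferredoxin, and both are fed by antenna proteins that bind chlorophyll and are imported from the cytosol, whereas the reaction centre proteins and the large subunit of Rubisco are made inside the plastid. The antenna and RBCS genes are induced by light and belong to the most abundant messenger RNAs of a green leaf. Arabidopsis embryos green in mid embryogenesis and lose their chlorophyll before the seed dries, so torpedo embryos carry photosynthetic plastids.

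The steps between low values gave depths of 6851605 to 13602764 reads, but only 31.7% to 40.5% of a library's low values were then whole reads within 0.01. The paper lists far more mapped reads for every library, so these depths are too low as read counts. At them, 3 reads for 1000 bp of exon corresponded to 0.221 to 0.438 RPKM (reads per kilobase of exon and per fixed number of reads). A larger total would lower that level. NRPD1 itself was at 2.42 to 2.69 RPKM in 2x wt, 2.82 to 4.48 in 2x nrpd1, 1.46 to 2.17 in 3x wt and 1.78 to 3.61 in 3x nrpd1, so its level does not check the pollen genotype. Replicate 3 of 3x nrpd1 stood apart: its RPKM summed to 866778 against 711651 to 751239 in the other libraries, and within its group its genes under 1000 bp were higher by a median of 0.52 and those over 3000 bp lower by a median of 0.57 (log2). The members are short (exon length 607 to 1894 bp, median 1230 bp, against 1775 bp for the genes tested), their median deviation in that library was 0.49, and calls that involve 3x nrpd1 are therefore given with and without it. Among markers of the tissues around the embryo, the summed RPKM of 12 seed coat genes was 155 to 166 in 2x wt, 168 to 189.6 in 2x nrpd1, 271 to 334 in 3x wt and 111 to 183 in 3x nrpd1, with 9, 7, 8 and 9 of the 12 under 1 RPKM. The sum of 15 endosperm genes was 58.2 to 70.5, 59.5 to 71.9, 87.8 to 95.7 and 24.3 to 85.8 in the same order, with 11, 12, 12 and 10 of the 15 under 1 RPKM. SUC5 (endosperm) and SBT1.7 (seed coat) made up most of these sums, AGL36 and AGL90 were listed at 0 in all libraries, PHE1, MEA and YUC10 in those of both 2x groups, TT1 in all groups but 3x wt, and TT2 in 2x wt and 3x wt. The sum of 14 embryo genes was 463 to 499, 450.2 to 577, 374 to 443 and 337 to 527. The part of these shifts in the results was not tested, and in pooled embryos fewer cells expressing a gene and less RNA per cell cannot be told apart.

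Several members are close copies of each other, and this sets what a read can say about them. LHCB1.1 (AT1G29920), LHCB1.2 (AT1G29910) and LHCB1.3 (AT1G29930) stand side by side on chromosome 1, and their 804-base coding sequences are 95.6% (LHCB1.1 and LHCB1.2), 96.1% (LHCB1.1 and LHCB1.3) and 96.4% (LHCB1.2 and LHCB1.3) identical. They differ at 47 positions, and their longest identical runs are 116, 119 and 74 bases in the same order. The authors kept a single alignment per read, so a read that matches these genes equally well can be placed at any of them. Their reads were paired and, before trimming, longer than each of these runs, which limits such cases in the coding sequence. How many reads were placed this way was not counted, and a level of any one of the 3 genes is less certain than their sum. The first 90 coding bases are shown because this family carries the largest levels and a split between copies described below. The stretches lie at chr1:10475803-10475892 on the minus strand (LHCB1.1), chr1:10473157-10473246 on the minus strand (LHCB1.2) and chr1:10478071-10478160 on the plus strand (LHCB1.3) of the RefSeq assembly TAIR10.1, read 5′ to 3′, and capitals mark the 9 positions at which the copies differ.
LHCB1.1: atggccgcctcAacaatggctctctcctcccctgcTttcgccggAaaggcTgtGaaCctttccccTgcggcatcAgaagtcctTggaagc
LHCB1.2: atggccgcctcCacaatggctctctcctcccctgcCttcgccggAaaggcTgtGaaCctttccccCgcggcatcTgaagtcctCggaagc
LHCB1.3: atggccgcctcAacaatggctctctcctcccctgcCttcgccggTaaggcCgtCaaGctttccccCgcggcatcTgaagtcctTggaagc

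PSAH1 and PSAH2, and PSBQ1 and PSBQ2, are pairs of more distant copies (87.0% and 76.3% identical in their coding sequence) whose members went separate ways in 3x wt embryos, and the 250 bases before each gene start are shown for that comparison. The windows are chr3:5469595-5469844 on the minus strand (PSAH1), chr1:19454548-19454797 on the plus strand (PSAH2), chr4:11334102-11334351 on the plus strand (PSBQ1) and chr4:2673244-2673493 on the minus strand (PSBQ2) of TAIR10.1. Capitals mark the G-box CACGTG and the I-box GATAAG on either strand (CTTATC on the strand shown), both letters found often before light-regulated genes.
PSAH1: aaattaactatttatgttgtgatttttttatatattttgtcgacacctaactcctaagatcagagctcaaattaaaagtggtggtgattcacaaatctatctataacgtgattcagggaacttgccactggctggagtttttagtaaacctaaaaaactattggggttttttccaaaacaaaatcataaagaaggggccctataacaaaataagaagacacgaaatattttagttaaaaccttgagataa
PSAH2: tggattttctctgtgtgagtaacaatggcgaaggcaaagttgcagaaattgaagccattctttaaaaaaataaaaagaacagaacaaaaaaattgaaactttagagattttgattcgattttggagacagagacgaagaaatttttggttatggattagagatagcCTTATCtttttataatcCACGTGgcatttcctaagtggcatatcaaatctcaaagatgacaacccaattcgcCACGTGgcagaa
PSBQ1: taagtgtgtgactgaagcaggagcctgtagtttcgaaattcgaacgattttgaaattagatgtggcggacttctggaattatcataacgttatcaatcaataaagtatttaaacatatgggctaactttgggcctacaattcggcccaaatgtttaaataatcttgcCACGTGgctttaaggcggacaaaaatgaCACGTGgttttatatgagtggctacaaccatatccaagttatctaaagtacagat
PSBQ2: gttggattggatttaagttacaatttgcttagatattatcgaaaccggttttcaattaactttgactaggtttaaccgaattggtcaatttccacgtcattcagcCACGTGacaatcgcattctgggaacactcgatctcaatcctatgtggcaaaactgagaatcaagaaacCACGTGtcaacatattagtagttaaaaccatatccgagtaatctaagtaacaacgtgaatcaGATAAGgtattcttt
The PSAH1 window held neither motif, the PSAH2 window held 2 G-boxes and 1 I-box, the PSBQ1 window 2 G-boxes and the PSBQ2 window 2 G-boxes and 1 I-box, so that in one pair the windows differed in these letters and in the other both carried the G-box. Over all 43 members, a G-box was present in 9 windows (20.9%) against 6.49% of the 27443 windows of the annotation, and an I-box in 10 (23.3%) against 12.3%. AGATTCT, a GLK-type motif, was present in 5 (11.6%) against 6.22%, the RY motif CATGCA in 4 (9.30%) against 8.43%, the evening element AATATCT in 5 (11.6%) against 10.0%, and TATAAA in 18 (41.9%) against 47.3%. All were searched on both strands, and no motif contains another.

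The members were among the most abundant messenger RNAs of the embryo in every cross. In every library 38 of the 43 were among the 1000 highest genes and 6 were among the 100 highest, and LHCB1.3 was the highest of all genes in 11 of 12 libraries, with 1.01% to 2.56% of all RPKM. The summed RPKM of the members was 5.16%, 5.13% and 3.94% of all RPKM in 2x wt replicates 1 to 3 (4.74% ± 0.70, SD, n = 3), 5.75%, 5.44% and 4.89% in 3x wt (5.36% ± 0.44), 4.85%, 5.37% and 4.2% in 2x nrpd1 (4.81% ± 0.59) and 6.79%, 6.04% and 8.40% in 3x nrpd1 (7.07% ± 1.2). The 2x and 3x wt libraries overlapped, and the 3 libraries of 3x nrpd1 lay above the other 9. The 9 LHCB1, LHCB2 and LHCB3 genes made the largest contribution. They held 2.13% ± 0.52 of all RPKM in 2x wt, 2.15% ± 0.40 in 2x nrpd1, 2.42% ± 0.24 in 3x wt and 3.65% ± 0.98 in 3x nrpd1. The 3x nrpd1 libraries were at 3.20%, 2.98% and 4.77%, the last being replicate 3, which stood apart.

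**Figure D1:**
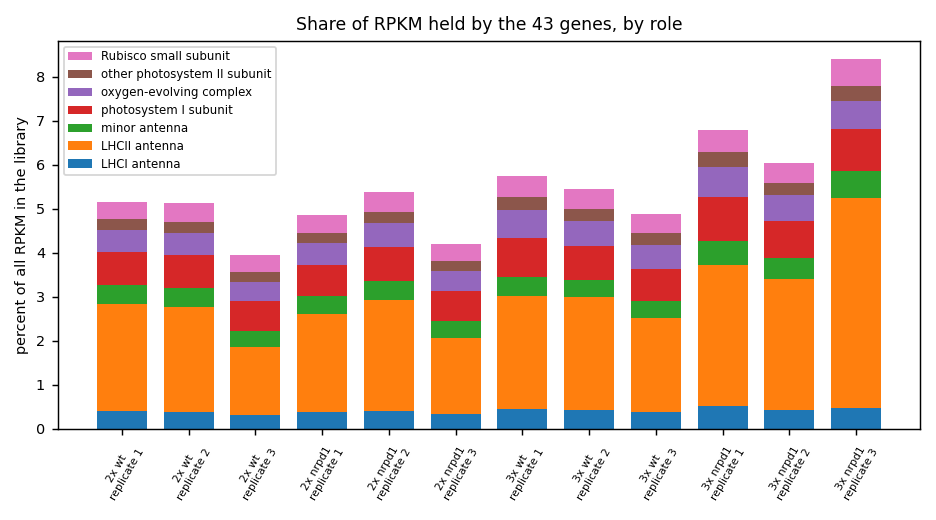
Summed RPKM of the 43 genes as a percent of all RPKM (vertical axis), one stacked bar per library, with the 7 roles as colours. The 3x nrpd1 libraries sit at 6.04% to 8.40%, above the 3.94% to 5.75% of the other libraries.

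In the deposited RPKM, before scaling, most members ranked the replicates of a group alike. In 2x wt, replicate 3 was the lowest for 38 of the 43 genes, and in 3x wt replicate 1 was the highest for 40. In 3x nrpd1, replicate 2 was the lowest for 41 and replicate 3 the highest for 35. The scale of a library enters these ranks, and they were not counted over all genes. After scaling, the members' median deviation from their group was -0.20 (log2) in 2x wt replicate 3 and 0.07 in 3x wt replicate 1. It was -0.40 in 3x nrpd1 replicate 2 and 0.49 in 3x nrpd1 replicate 3. The spread differed between genes, also within the antenna. LHCB1.1 was at 1707, 1456 and 537 RPKM in the 3 libraries of 2x wt. The antenna gene LHCA2 was at 499, 496 and 511 there, and PSAH1 at 205, 198 and 202.

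**Figure D2:**
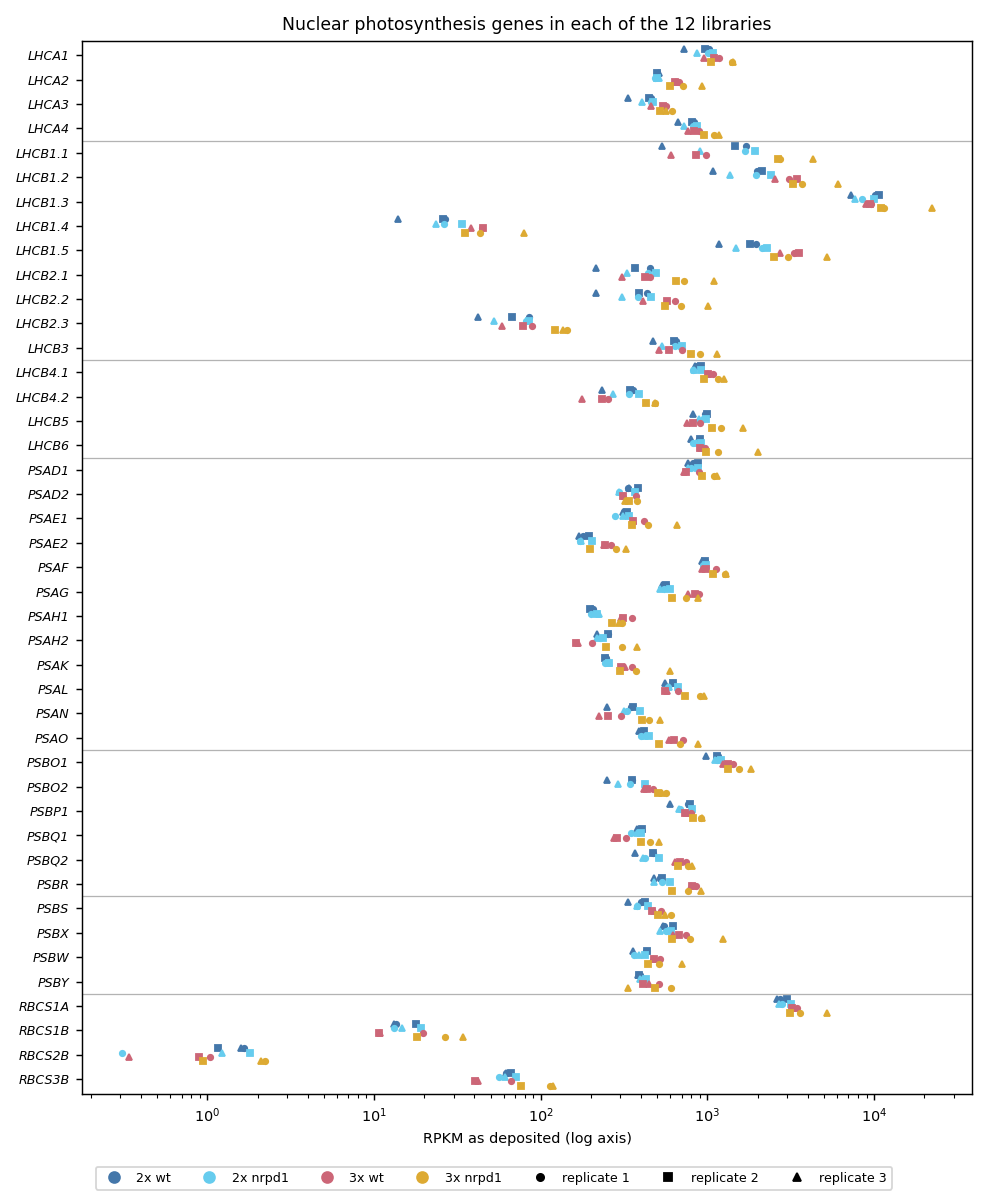
Level of each of the 43 genes in the 12 libraries on a log axis of RPKM, one row per gene and grouped by role; colours mark the groups and shapes the replicates. LHCB1.3 stands at the top with 7215 to 22223 RPKM, and RBCS2B at the bottom with 0.309 to 2.2 RPKM.

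The comparison of 3x wt with 2x wt asked how transcript levels in triploid embryos with uncellularized endosperm differed from those in diploid embryos. 3 members rose by more than 1 on the log2 scale at an adjusted p under 0.05 (limma with Benjamini-Hochberg adjustment over all genes tested), namely LHCB1.2, LHCB1.4 and LHCB1.5, and 0 fell, while 11.1% of the 17965 genes tested rose and 4.85% fell by that rule. By adjusted p alone, 23 of the 43 were higher and 1 was lower, against 26.7% and 24.6% of all genes. The log2 fold change was positive for 36 and negative for 7, with a median of 0.41 against -0.01 over all genes. The deposited values without scaling moved the median of all genes to -0.16 and quantile normalization moved it to -0.11, and the numbers higher and lower by adjusted p alone were then 19 and 3, and 20 and 4. The RPKM given below are as deposited, and the fold changes are those after scaling by median ratios, which raises 3x wt relative to 2x wt. The fold changes of the members were mostly positive and small.

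The antenna of photosystem I, which passes excitation to P700, showed small shifts. LHCA1 (AT3G54890) was at 1018, 966 and 722 RPKM in 2x wt and 1165, 1098 and 956 in 3x wt, and LHCA2 (AT3G61470) at 499, 496 and 511 against 674, 639.9 and 644. The LHCA1 groups overlapped and the LHCA2 groups did not. The log2 fold changes were 0.43 (SE 0.15, adjusted p = 0.0431, limma) and 0.54 (SE 0.08, adjusted p = 0.000498). LHCA4 (AT3G47470), at 836, 812 and 666 RPKM in 2x wt and 889, 836 and 762 in 3x wt, did not pass the test (0.27, SE 0.12, adjusted p = 0.0924). LHCA1 passed in 8 of the 15 alternative settings (adjusted p of 0.0198 to 0.162 over all 15, limma). In all, 3 of the 4 LHCA genes were higher by adjusted p alone, against 26.7% of all genes. The median of the 4 LHCA genes was 0.47 (log2).

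The main antenna of photosystem II is a trimer of LHCB1, LHCB2 and LHCB3 proteins and the seat of most chlorophyll b. LHCB1.5 (AT2G34420) was at 1965, 1792 and 1170.4 RPKM in 2x wt and 3319.8, 3562 and 2712 in 3x wt, with no overlap and a log2 fold change of 1.15 (SE 0.21, adjusted p = 0.00176, limma). LHCB1.2 was at 1990.0, 2133 and 1080.0 against 3089, 3446 and 2535 (1.02, SE 0.26, adjusted p = 0.00983), and LHCB1.4 (AT2G34430), the least abundant LHCB1 gene, at 26.6, 25.7 and 14.0 against 44.2, 44.9 and 37.9 (1.13, SE 0.23, adjusted p = 0.00302). All 3 were lowest in 2x wt replicate 3. Without that library they were no longer past 1, with log2 fold changes of 0.89, 0.67 and 0.81 and adjusted p of 0.000629, 0.00376 and 0.000457. The most abundant copy, LHCB1.3, did not share this shift: it was at 10137, 10739 and 7215 RPKM in 2x wt and 9599, 9444 and 8919 in 3x wt (0.18, SE 0.20, adjusted p = 0.481). LHCB1.1 was at 981, 857 and 609 RPKM in 3x wt, inside the range of 2x wt (-0.30, SE 0.39, adjusted p = 0.555). The sum of LHCB1.1, LHCB1.2 and LHCB1.3 was 12331 ± 3040 RPKM in 2x wt against 13159.7 ± 951 in 3x wt (SD, n = 3), so the total of the 3 copies differed by less than the spread of 2x wt. LHCB2.2 (0.85, SE 0.26, adjusted p = 0.0227) was higher by adjusted p alone, while LHCB2.1, LHCB2.3 and LHCB3 had log2 fold changes of 0.41, 0.41 and 0.22 that did not pass. LHCB1.2, LHCB1.4 and the LHCB2 genes were named after their values were seen.

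The minor antenna proteins are monomers that connect the trimers to the photosystem II core. LHCB4.1 (AT5G01530) was at 866, 914 and 839.6 RPKM in 2x wt and 1085, 1008 and 1001 in 3x wt, with no overlap (0.40, SE 0.10, adjusted p = 0.00668, limma). Its copy LHCB4.2 (AT3G08940) was at 355, 341 and 234 RPKM in 2x wt and 252, 233 and 176 in 3x wt (-0.32, SE 0.19, adjusted p = 0.176), and LHCB5 (AT4G10340) at 962, 996 and 819 against 903, 824 and 751 (0.0016, SE 0.12, adjusted p = 0.992). Only LHCB4.1 of these 4 genes passed by adjusted p alone.

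Among the 12 photosystem I subunits, 6 were higher and 0 lower by adjusted p alone, with a median of 0.33. The largest fold change of these was that of PSAH1 (AT3G16140), which encodes a copy of the subunit at which the mobile antenna docks: 205, 198 and 202 RPKM in 2x wt and 353, 310.3 and 304 in 3x wt (0.84, SE 0.08, adjusted p = 4.04e-05, limma). PSAO, a small subunit next to that docking site, was at 404, 417 and 387 RPKM against 710, 632 and 586 (0.84, adjusted p = 0.000119), and PSAG, which borders the photosystem I antenna, at 564, 567 and 537 against 889, 842 and 766 (0.74, adjusted p = 0.000206). PSAF (AT1G31330), which helps plastocyanin to dock, was at 969, 965 and 933 RPKM against 1133, 985 and 929 and did not pass (0.25, SE 0.10, adjusted p = 0.0639). PSAH2 (AT1G52230) was at 252, 251 and 217 RPKM against 204, 162 and 167, so its 3x wt libraries all lay below those of 2x wt, yet its adjusted p was 0.0605 (-0.27, SE 0.11). PSAD1 and PSAD2, copies of the ferredoxin-docking subunit, had log2 fold changes of 0.10 and 0.08 (adjusted p = 0.486 and 0.553).

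On the photosystem II side, 4 of 6 genes of the oxygen-evolving complex were higher and 1 lower. PSBO1 (AT5G66570), the manganese-stabilizing protein, was at 1159, 1142 and 983 RPKM in 2x wt and 1432, 1336 and 1245 in 3x wt (0.46, SE 0.12, adjusted p = 0.00943, limma). PSBR (AT1G79040) was at 519.9, 534 and 480.3 RPKM against 849, 807 and 801 (0.84, SE 0.09, adjusted p = 0.000106). The PSBQ copies went in opposite directions: PSBQ2 (AT4G05180) was at 474, 472 and 365 RPKM against 745, 684 and 638 (0.83, SE 0.13, adjusted p = 0.000736), and PSBQ1 (AT4G21280) at 396, 407 and 377 against 323, 286 and 274 (-0.26, SE 0.09, adjusted p = 0.0382). The libraries of 2x wt and 3x wt did not overlap for either copy. PSBQ1 was the only member that was lower by adjusted p alone in this comparison, and it did not pass in 6 of the 15 alternative settings (adjusted p of 0.00262 to 0.314 over all 15, limma). All 4 other photosystem II genes were higher by adjusted p alone: PSBX (AT2G06520; 0.41, SE 0.11, adjusted p = 0.00969), PSBY (AT1G67740; 0.39, SE 0.09, adjusted p = 0.00635), PSBW (0.44, adjusted p = 0.00929) and PSBS (AT1G44575; 0.52, SE 0.12, adjusted p = 0.00524), the sensor of lumen acidity in energy dissipation. PSBX, a small subunit of the core, was at 549, 625 and 544 RPKM in 2x wt and 742, 675 and 622 in 3x wt, and PSBY was at 395, 390.2 and 381 against 511, 409.6 and 448. PSBS was at 399.8, 425 and 335 RPKM in 2x wt and 529, 465 and 481 in 3x wt.

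RBCS1A (AT1G67090), the main small subunit gene, was at 2722, 3014 and 2607 RPKM in 2x wt and 3431, 3214 and 3252 in 3x wt (0.41, SE 0.12, adjusted p = 0.0206, limma). Under quantile normalization its direction turned and it passed as lower (-0.73, adjusted p = 0.00104, limma). It was higher at an adjusted p under 0.05 in 8 of the 15 alternative settings. The other RBCS genes lie in tandem on chromosome 5 and were far lower. They may share reads, as RBCS1B and RBCS2B are 97.3% identical and RBCS1B and RBCS3B have an identical run of 230 bases. RBCS3B was at 62.2, 65.9 and 61.5 RPKM against 66.4, 40.1 and 42.1 (-0.22, SE 0.16, adjusted p = 0.26), and RBCS2B (AT5G38420), at 1.66, 1.16 and 1.60 against 1.04, 0.893 and 0.339 (-0.58, SE 0.30, adjusted p = 0.137), was close to the filter of 1 RPKM. The sum of the 3 tandem genes was 79.5 ± 4.62 RPKM in 2x wt against 64.1 ± 20.0 in 3x wt.

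**Figure D3:**
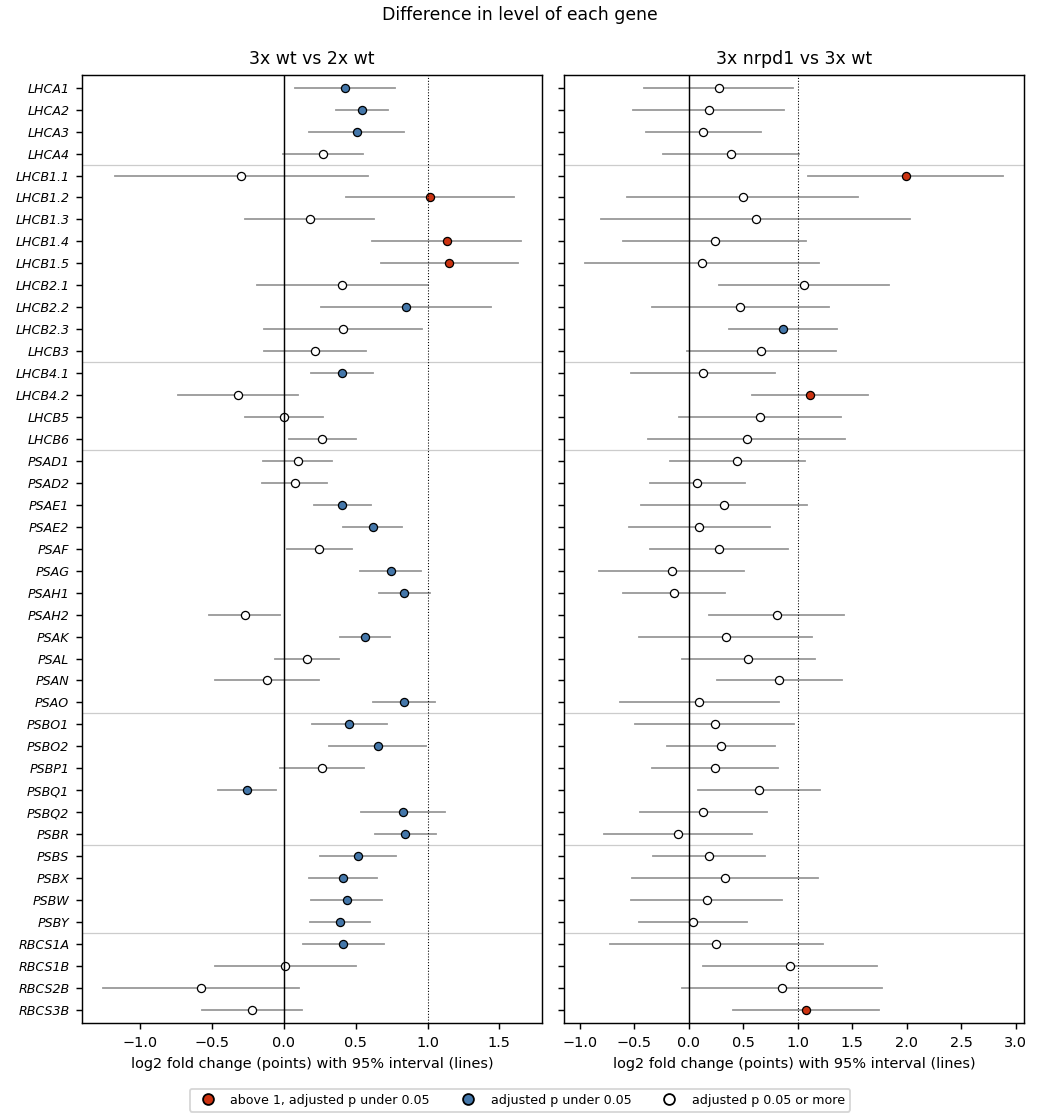
Log2 fold change of each of the 43 genes with its 95% interval, in 3x wt against 2x wt and in 3x nrpd1 against 3x wt, ordered by role; red points are above 1 at an adjusted p under 0.05, blue points have an adjusted p under 0.05, open points do not, and the dotted line marks 1. In the former most points lie right of 0 (36 of 43), and in the latter 40 of 43 do, with wider intervals.

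The ratio of 2 copies within a library needs no scaling between libraries, and 11 such pairs were compared. Where copies differ in exon length, as PSAH1 (1300 bp) and PSAH2 (702 bp) do, the ratio keeps the length shift of 3x nrpd1 replicate 3. That library is the last of the 3 values listed for 3x nrpd1. The 5 described first were chosen after their values were seen. The ratio of LHCB1.2 to LHCB1.1 was 1.17, 1.46 and 2.01 in 2x wt, 3.15, 4.02 and 4.17 in 3x wt, 1.18, 1.24 and 1.5 in 2x nrpd1 and 1.36, 1.21 and 1.42 in 3x nrpd1. The 3x wt libraries therefore stood above those of every other group, by 2.49-fold over 2x wt. The ratio of PSAH1 to PSAH2 was 0.812, 0.788 and 0.930 in 2x wt, 1.73, 1.91 and 1.83 in 3x wt, 0.880, 0.919 and 1.02 in 2x nrpd1 and 0.998, 1.09 and 0.782 in 3x nrpd1. PSAH1 was thus the lower copy in all 2x wt libraries and the higher copy in all 3x wt libraries (2.17-fold). The ratio of PSBQ2 to PSBQ1 was 1.2, 1.16 and 0.969 in 2x wt, 2.3, 2.39 and 2.32 in 3x wt (2.12-fold over 2x wt), 1.22, 1.29 and 1.09 in 2x nrpd1 and 1.69, 1.68 and 1.56 in 3x nrpd1. For this pair the 3x nrpd1 libraries lay between those of 3x wt and of the 2x groups.

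The antenna pairs LHCB4.1 to LHCB4.2 and LHCB2.2 to LHCB2.1 showed smaller shifts of the same form. The former ratio was 2.44, 2.68 and 3.59 in 2x wt, 4.31, 4.33 and 5.68 in 3x wt and 2.38, 2.23 and 2.58 in 3x nrpd1, and the latter was 0.956, 1.06 and 1.01 in 2x wt, 1.42, 1.36 and 1.34 in 3x wt and 0.966, 0.862 and 0.921 in 3x nrpd1. In each of these 5 pairs the 3x wt libraries did not overlap those of 2x wt or of 3x nrpd1, and the exact two-sided permutation p was 0.1, the smallest that 3 libraries against 3 allow (0.122 and 0.157 after adjustment over the 11 pairs). How often the ratios of unrelated genes separate was not computed, so the number of separated pairs has no background here. By adjusted p alone (limma), 26.7% of all genes were higher and 24.6% lower in 3x wt than in 2x wt. Of the rest of the 11 pairs, 4 had a ratio in 3x wt outside the range of 2x wt. The mean ratio of LHCB1.2 to LHCB1.3 was 0.182 in 2x wt and 0.324 in 3x wt, and the 0.297 of 3x nrpd1 came from libraries that overlapped 3x wt. That of PSAE2 to PSAE1 was 0.569, 0.658 and 0.566 in the same order, and that of PSBO2 to PSBO1 0.288, 0.330 and 0.346, both with overlap between 3x nrpd1 and 3x wt. The ratio of RBCS3B to RBCS1A moved down in 3x wt, with means of 0.0228, 0.0149 and 0.0263 and no overlap of 3x wt with either group. The other 2 pairs did not separate between 2x wt and 3x wt: the ratio of PSAD1 to PSAD2 was 2.45, 2.29 and 2.26 in 2x wt and 2.37, 2.41 and 2.31 in 3x wt, with overlap (exact permutation p = 0.7), although in 3x nrpd1 it was 2.75 to 3.56, above 3x wt. The LHCB1.4 to LHCB1.5 ratios overlapped between 2x wt and 3x wt (exact permutation p = 1).

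**Figure D4:**
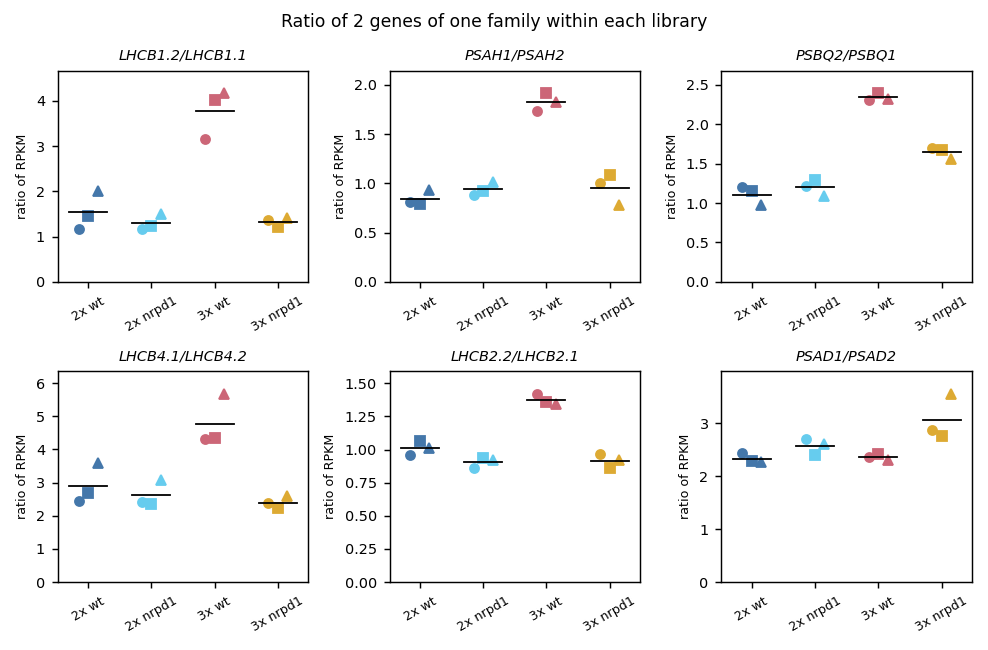
Ratio of the RPKM of 2 copies within each library (vertical axis, linear from 0) for 6 pairs, one point per library and one column per group, with shapes for replicates 1 to 3 and a line at the group mean. The 3x wt points for LHCB1.2 to LHCB1.1 (3.15 to 4.17) and PSAH1 to PSAH2 (1.73 to 1.91) stand above those of the other 3 groups, and those for PSAD1 to PSAD2 do not.

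The comparison of 3x nrpd1 with 3x wt asked what the mutant father changed in triploid embryos. 3 members rose past 1, namely LHCB1.1, LHCB4.2 and RBCS3B, and 0 fell, against 3.18% and 6.5% of 17913 genes tested. By adjusted p alone 4 were higher, LHCB2.3 being the other, and 0 were lower, against 5.92% and 8.46%. The log2 fold change was positive for 40 of the 43, with a median of 0.32 against -0.01 over all genes.

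LHCB1.1 was at 2709, 2667 and 4313 RPKM in 3x nrpd1 but at 981, 857 and 609 in 3x wt (log2 fold change 1.99, SE 0.39, adjusted p = 0.0141, limma). LHCB4.2 was at 483, 429 and 486 RPKM against 252, 233 and 176 (1.11, SE 0.23, adjusted p = 0.0182), LHCB2.3 at 144, 121 and 137 against 88.1, 78.3 and 58.6 (0.86, SE 0.21, adjusted p = 0.0333) and RBCS3B at 114, 76.2 and 119 against 66.4, 40.1 and 42.1 (1.07, SE 0.29, adjusted p = 0.044). The groups did not overlap for any of the 4, and LHCB1.1 in 3x nrpd1 was also above all of its 2x libraries (537 to 1934 RPKM). LHCB1.5 and PSAH1, which were higher in 3x wt than in 2x wt, did not pass here: LHCB1.5 was at 3042, 2522 and 5228 RPKM in 3x nrpd1 (0.12, SE 0.47, adjusted p = 0.875) and PSAH1 at 308, 268 and 294 (-0.14, SE 0.20, adjusted p = 0.676). LHCB1.3 was at 11518, 10938 and 22223 RPKM, the last value from the library that stood apart (0.61, SE 0.62, adjusted p = 0.521). These comparisons share the 3x wt libraries, so a low value there lowers 1 fold change and raises the other.

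The library that stood apart and the 3x wt libraries each decided calls here. Without 3x nrpd1 replicate 3, LHCB1.1 alone rose past 1 (1.64, adjusted p = 0.000427, limma; background 2.54%), and LHCB4.2 (0.95, adjusted p = 0.00197), RBCS3B (0.83, adjusted p = 0.0252) and LHCB2.3 (0.72, adjusted p = 0.0111) were higher by adjusted p alone. By adjusted p alone 11 of the 42 members tested were then higher and 3 lower, against 13.5% and 16.5% of all genes, and the median was 0.08. The higher ones included PSAH2 (0.53, adjusted p = 0.0126), PSBQ1 (0.42, adjusted p = 0.00918), PSAN (0.60, adjusted p = 0.00511) and LHCB2.1 (0.70, adjusted p = 0.00904), and the lower ones were PSAG (-0.41, adjusted p = 0.0171), PSAH1 (-0.28, adjusted p = 0.044) and PSBR (-0.37, adjusted p = 0.0242). With 3x wt replicate 1, 2 or 3 left out 0 members were called, and the share of all genes called up was then 2.24%, 1.01% and 1.15%. The log2 fold changes stayed at 1.80 to 2.11 for LHCB1.1 (adjusted p of 0.0546 to 0.109, limma), 0.96 to 1.19 for LHCB4.2 (adjusted p of 0.059 to 0.126) and 0.95 to 1.27 for RBCS3B (adjusted p of 0.0605 to 0.2). Without 3x nrpd1 replicate 2, 6 members were called, against 3.12% of all genes.

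The 2x nrpd1 embryos share the mutant father but were diploid and, by the labels, younger. Against them, all 43 members had a positive log2 fold change in 3x nrpd1, from 0.26 (PSAD2) to 1.3 (LHCB1.2), with a median of 0.63. Of all 17585 genes tested, 8412 were positive, and their median was -0.02. No member was past the threshold, while 0.904% of all genes rose and 0.0171% fell by limma. At an unadjusted p under 0.05, 19 members were higher, against 7.78% of all genes. Without 3x nrpd1 replicate 3 the median was 0.40, 38 were higher at an unadjusted p (10.9% of all genes), 0 rose past 1 (1.13% of all genes), and PSBQ2 alone was higher by adjusted p (0.71, adjusted p = 0.0332), against 2.4% of all genes. LHCB1.2 was at 1967, 2400.2 and 1365 RPKM in 2x nrpd1 and 3682, 3239 and 6103 in 3x nrpd1, and the LHCB1.1 to LHCB1.3 sum was 12133 ± 2227 against 22463.7 ± 8827, with replicate 3 the highest.

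In diploid embryos no member passed the test between the fathers. Comparing 2x nrpd1 with 2x wt, 0 members and 0 of all 17472 genes tested were called (0% up and 0% down, limma), 0 members passed an unadjusted p of 0.05 against 5.63% of all genes in either direction, and the median of the members was 0.07. The widest intervals were those of LHCB1.1 (log2 fold change 0.40, 95% interval -0.60 to 1.41) and RBCS2B (-0.39, 95% interval -1.27 to 0.49), and the narrowest included that of PSAK (0.05, 95% interval -0.12 to 0.23), so the precision was lower for LHCB1 genes than for photosystem I subunits.

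Whether the change from 2x to 3x embryos differed between the 2 fathers was tested as an interaction. By the labels, ploidy and age both differ in that change. The interaction was the fold change of 3x wt over 2x wt minus that of 3x nrpd1 over 2x nrpd1. 0 members were called, against 5.32% (up) and 2.77% (down) of 18561 genes. At an unadjusted p under 0.05, 5 members were negative and 0 positive. Of all 18561 genes, 2342 (12.6%) were negative and 2767 positive by that rule, so the members' negative share was not above that of all genes. The negative members were LHCB1.1 (-1.56, SE 0.65, adjusted p = 0.141, limma), RBCS3B (-1.04, SE 0.33, adjusted p = 0.0579), LHCB4.2 (-0.95, SE 0.32, adjusted p = 0.0708), PSAH2 (-0.83, SE 0.29, adjusted p = 0.0843) and PSBQ1 (-0.66, SE 0.25, adjusted p = 0.108). The median was -0.24, and 0.02 without 3x nrpd1 replicate 3. Without that library 0 members were called (3.02% of all genes down), PSAH2 (-0.56, adjusted p = 0.0306) and PSBQ1 (-0.45, adjusted p = 0.0348) were lower and PSAH1 (0.40, adjusted p = 0.0338) and PSAG (0.45, adjusted p = 0.0481) higher by adjusted p alone, against 9.6% of all genes lower and 11.7% higher, so that the 2 PSAH copies stood on opposite sides of 0.

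Genes that work beside the members were read from lists of other photosynthesis functions, none of which was tested as a set. Of all genes tested in 3x wt against 2x wt, 26.7% were higher and 24.6% lower by adjusted p alone, and 11.1% rose and 4.85% fell past 1. Of 19 Calvin-Benson cycle genes, 6 were higher and 5 lower in 3x wt than in 2x wt by adjusted p alone (median -0.07), from PGK2, a phosphoglycerate kinase (0.70), to CP12-2, a redox scaffold protein (-1.06). Of 14 electron carrier and ATP synthase genes, 6 were higher and 1 lower (median 0.20), from PGRL1B of cyclic electron flow (0.53) to FNR2, a ferredoxin-NADP reductase (-0.42). Of 8 rare antenna and antenna-like genes, LHCA5, LHCB4.3 and ELIP1 rose past 1 (1.3, 1.23 and 1.64) and LHCA6 fell (-1.19). The 7 genes for import, insertion and phosphorylation of antenna proteins went mostly the other way from the members, with 1 higher and 5 lower by adjusted p alone (median -0.49), and CPSRP54, which guides antenna proteins to the thylakoid, fell by 1.31. Of 19 regulators, 17 were tested, 3 higher and 6 lower (median -0.26): SIG2, a sigma factor of the plastid RNA polymerase, fell by 1.53, GLK1, an activator of antenna genes, had a log2 fold change of -0.69 (adjusted p = 0.000167) and its copy GLK2 one of 0.44 (adjusted p = 0.0371).

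In 3x nrpd1 against 3x wt, HCEF1, a plastid fructose-bisphosphatase (1.19), and RPI3, a ribose-5-phosphate isomerase (1.33), rose among the Calvin-Benson genes (median of that list 0.40), ELIP2 and OHP2 rose among the antenna-like genes (1.00 and 1.02, median 0.75), and HYH, a light-signalling bZIP factor (2.19), and SIG2 (1.2) rose among the regulators (median 0.15). The electron carriers and the import genes had 0 called, with medians of 0.41 and 0.39. Of all genes tested, 3.18% were called up and 6.5% down, and 2.54% were called up without 3x nrpd1 replicate 3. Without 3x nrpd1 replicate 3, HCEF1 (1.18), RPI3 (1.00), HYH (2.35) and SIG2 (1.32) were still past 1, with adjusted p of 0.000253 to 0.0012 (limma). ELIP2 (0.77) and OHP2 (0.91) were then no longer past 1, and LHCA6 was (1.08, adjusted p = 0.00755). The antenna-like list also had 0 called with a pseudocount of 1, with the exon-length trend removed and without 3x wt replicate 1 or 2. Without 3x nrpd1 replicate 3 the medians were 0.35 for the Calvin-Benson genes, 0.17 for the electron carriers, 0.39 for the antenna-like genes, 0.48 for the import genes and 0.35 for the regulators. SIG2 was at 39.0, 41.3 and 44.3 RPKM in the libraries of 2x wt, 13.9, 12.1 and 11.6 in 3x wt and 35.9, 33.2 and 20.4 in 3x nrpd1, so the group with the lowest SIG2 was 3x wt. All 7 plastid-encoded partner genes searched, rbcL among them, were listed at 0 in all 12 libraries, so no level of the subunits made in the plastid can be given.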

How the data were processed

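Poly(A) RNA of embryos was sequenced in 12 libraries, 3 biological replicates for each of 4 crosses. Reads were trimmed by the authors (Trimmomatic), aligned to TAIR10 without its rRNA genes by TopHat2, which reported a single alignment per read, and counted by GFOLD, and the authors deposited RPKM, the total used for which is not given in the sources used here. RPKM were scaled by median ratios, and genes of at least 1 RPKM in at least 3 libraries of a fit were tested on log2(RPKM + 0.5) with limma (version 3.58.1, R 4.3.3; trend, two-sided, Benjamini-Hochberg over all genes tested) in the 6 libraries of both groups, or in all 12 for the interaction. Fold changes are on this scale, which understates low genes. A gene was called at an absolute log2 fold change over 1 and an adjusted p under 0.05. Copies were also compared by ratios within a library with exact permutation tests. Lengths, positions and windows came from TAIR10.1 (RefSeq). Figures were drawn with matplotlib 3.10.9 in Python 3.11.15. Named genes were the most abundant, the highest and the lowest in fold change of each role, and the highest and lowest of each other list; others were named after their values were seen. The members and lists were chosen with earlier results of these data known. The alternatives tried were a pseudocount of 0.1 or 1, a filter on low values left out or set at a mean of 5 RPKM, unscaled and quantile-normalized values, removal of an exon-length trend, a fit of all libraries, a replicate block and leaving out each replicate.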

Additional observations from a re-analysis of the deposited data

Results flagged for a closer look

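None of the 43 members met a criterion for a closer look. In 7 genes of the other photosynthesis lists the change from 2x to 3x embryos differed between the fathers by the interaction test (limma, adjusted over all genes tested). Of all 18561 genes tested, 5.32% were called up and 2.77% down by this test. The lists gave 2 down of 19 Calvin-Benson genes, 0 of 14 electron carrier genes and 1 up and 1 down of 8 antenna-like genes. They further gave 1 down of 7 import genes and 2 down of 17 regulators tested, and no list was tested as a set. The interaction, 3x wt over 2x wt minus 3x nrpd1 over 2x nrpd1 on the log2 scale, was -1.34 for SIG2 (SE 0.18, adjusted p = 0.00071), -1.14 for CPSRP54 (SE 0.20, adjusted p = 0.00323), -1.05 for HCEF1 (SE 0.21, adjusted p = 0.00787) and -1.78 for HYH (SE 0.36, adjusted p = 0.00785). It was -1.24 for LHCA6 (SE 0.26, adjusted p = 0.0106), -1.23 for RPI3 (SE 0.30, adjusted p = 0.0188) and 1.79 for ELIP1 (SE 0.48, adjusted p = 0.031). Over 20 alternatives, SIG2, CPSRP54, HYH and LHCA6 were called in all 20, HCEF1 in 16 (-1.16 to -0.93), RPI3 in 15 (-1.41 to -0.91) and ELIP1 in 11 (1.45 to 2.12); these alternatives were run after the data were seen. HCEF1 lost its call without 2x wt replicate 1, 2x nrpd1 replicate 3, 3x wt replicate 3 or 3x nrpd1 replicate 1, and RPI3 without 2x wt replicate 2, 2x nrpd1 replicate 1, 3x wt replicate 2 or 3, or 3x nrpd1 replicate 3. ELIP1 lost it with no filter on low values, was not tested at a mean of at least 5 RPKM, and lost it under quantile normalization and without 2x wt replicate 1 or 2, 2x nrpd1 replicate 3, 3x wt replicate 2 or 3, or 3x nrpd1 replicate 1. Without 3x nrpd1 replicate 3, the library that stood apart, the values were -1.48 for SIG2, -1.22 for CPSRP54, -1.05 for HCEF1, -1.94 for HYH, -1.35 for LHCA6, -0.91 for RPI3 and 2.00 for ELIP1, with adjusted p of 2.51e-05 to 0.0126 (limma). CPSRP54 RPKM in 2x wt were 83.5, 84.0 and 101, against 68.9, 76.0 and 75.8 in 2x nrpd1, 38.9, 26.5 and 31.2 in 3x wt against 73.7, 63.7 and 45.0 in 3x nrpd1. HCEF1 RPKM in 2x wt were 102, 91.9 and 82.2, those in 3x wt 54.3, 51.0 and 41.9, and those in 3x nrpd1 131, 110.2 and 94.5. ELIP1 was low throughout, at 0.896 to 1.56 RPKM in 2x wt, 2.41 to 4.37 in 2x nrpd1, 3.32 to 6.59 in 3x wt and 1.46 to 3.21 in 3x nrpd1.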

How the results depend on the processing

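In 3x wt against 2x wt, the number of members called up was 3, 0 with the deposited values unscaled, 1 under quantile normalization and 0 to 4 when one replicate was left out (0 without 2x wt replicate 3). The number higher by adjusted p alone was 23 and 11 with all 12 libraries in one fit. The number lower by adjusted p alone was 1, 0 with no filter or all 12 libraries, 3 unscaled, 4 under quantile normalization, 2 without the exon-length trend, 2 with the replicate block and 0 to 5 leaving out a replicate. The log2 fold change of LHCB5 reversed from 0.0016 to -0.16 unscaled, -0.10 under quantile normalization, -0.0056 without the length trend, and ranged from -0.12 to 0.071 leaving out a replicate. LHCB1.3 reached -0.24 under quantile normalization (-0.032 to 0.30 leaving out a replicate), RBCS1A -0.73 under quantile normalization, and LHCB1.1 -0.85 to 0.020 leaving out a replicate. PSAH1, PSBR, PSBQ2, PSBS and LHCB1.4 kept an adjusted p under 0.05 in all 15 alternatives (limma).

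In 3x nrpd1 against 3x wt, 0 to 6 members were called up leaving out a replicate. The number higher by adjusted p alone was 4, 8 unscaled, 11 under quantile normalization, 7 without the length trend, 9 with all libraries and 0 to 11 leaving out a replicate; the number lower was 1 under quantile normalization and 0 to 3 leaving out a replicate. LHCB1.5 was -0.071 without the length trend and -0.31 to 0.42 leaving out a replicate, and RBCS1A -0.088 to 0.48. In 3x nrpd1 against 2x nrpd1, 2 members were higher by adjusted p alone with all libraries and 0 to 1 leaving out a replicate, and the median was 0.33 under quantile normalization. For the interaction, 1 member was called down unscaled and 1 under quantile normalization, and 0 to 3 leaving out a replicate. By adjusted p alone 4 were lower unscaled, 4 under quantile normalization, 4 without the length trend and 0 to 4 leaving out a replicate; 0 to 2 were higher, and the median was -0.42 to 0.020. The cause was not tested.

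Same-numbered replicates correlated at -0.15 to 0.30, so the numbers were not taken as pairs; with the replicate block 3 members were up in 3x wt against 2x wt and 25 were higher by adjusted p alone. Requiring a mean of at least 5 RPKM gave 1215 genes up and 498 down there in place of 1988 and 872. With 3 libraries per group the members' folds in 3x wt against 2x wt had an SE of up to 0.39 (LHCB1.1).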
